A study of Homo sapiens with 24 samples.

Results

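Places where an IgG control and SLBP had peaks and RBFOX2 had none were taken from eCLIP peak lists of 293T cells, a human embryonic kidney line that carries the SV40 large T antigen. A place is a peak of the IgG list that shares at least 1 nt on its strand with a peak of SLBP replicate 1 and with a peak of SLBP replicate 2, and shares no nt on its strand with a peak of either RBFOX2 list. Positions are on the hg19 build and count from 1. Mitochondrial peaks were left out, and no limit on fold or p-value was set. Of the 28204 IgG peaks on nuclear chromosomes, 3390 met the SLBP part of the rule and 293 of these met the RBFOX2 part as well. The places were thus chosen by the presence of peaks in 5 lists (IgG, SLBP replicates 1 and 2, and both RBFOX2 lists), and the values of those lists are given below as a description, with no test.

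All libraries came from unmodified 293T cells crosslinked with ultraviolet light, and they differed in the antibody and in the amount of RNase I. IgG (1 library), RBFOX2 (2 libraries) and SLBP replicates 1 and 2 received 40 U of RNase I, and SLBP replicates 3 and 4 received 5 U. Each immunoprecipitation had its own input, which enters here only through the authors' folds. The labels do not say that replicates came from separate cultures, so spreads between libraries may be technical. The numbers of nuclear peaks were 74676 and 97399 for RBFOX2, and 22896, 18236, 16836 and 10009 for SLBP replicates 1 to 4. No list gives reads, so depth is unknown.

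In eCLIP, proteins are crosslinked to RNA in living cells, pulled down with an antibody and run on a gel, and the RNA fragments that stay attached are sequenced beside a size-matched input. An isotype control IgG is directed at no protein of the cell, so its library samples RNA that is recovered without a target. RBFOX2 is a splicing regulator that reads (U)GCAUG elements, and SLBP binds the stem-loop that ends replication-dependent histone mRNAs in place of a poly(A) tail. All folds below are the authors' log2 values of immunoprecipitation over paired input at a peak. Where several SLBP peaks overlapped a place, the one with the longest overlap gave its value. That occurred at 9 and 6 places for SLBP replicates 1 and 2.

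RBFOX2 peaks were absent from few of the IgG peaks that both 40 U SLBP lists shared. Of these 3390 peaks, 8.64% (7.72 to 9.64) held no RBFOX2 peak, against 55.5% of all IgG peaks and 61.9% (61.3 to 62.5) of the IgG peaks that were not in both SLBP lists. Among the 3097 peaks kept out by RBFOX2, 2616 overlapped a peak in both RBFOX2 lists, 338 in replicate 1 only and 143 in replicate 2 only. The RBFOX2 lists are also several times longer than the others, and the part of list length in this share was not tested. The number of places rests on each library: without SLBP replicate 1 or 2 the rule gave 1019 or 1280 places, and without RBFOX2 replicate 1 or 2 it gave 631 or 436. The IgG list comes from a single library, so its values have no replicate spread. Intervals given with shares are exact binomial 95% intervals and include no other error than counting.

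At the edge of the rule, 2 places touched an RBFOX2 peak end to end without sharing a nucleotide. One was chr1:70687190-70687293 on the plus strand. Its IgG log2 fold was 0.23, and the adjoining RBFOX2 peaks had log2 folds of −1.26 in replicate 1 and −1.28 in replicate 2. The other was chr21:34907531-34907538 on the minus strand, whose IgG log2 fold was 0.50. Of 3 places that lay 2 nt from an RBFOX2 peak, chr12:124458431-124458434 on the plus strand was 4 nt wide and had an IgG log2 fold of −0.37. Just outside the rule, 9 IgG peaks shared only 1 nt with an RBFOX2 peak and 72 shared at most 5 nt. The first of them by position, at chr1:32663293-32663314 on the plus strand, had an IgG log2 fold of −0.22 and an RBFOX2 replicate 1 log2 fold of −1.23. The next ones, both on chromosome 1 on the plus strand, were 2 nt and 1 nt wide and started at 226252030 and 226253357, with IgG log2 folds of −0.10 and 0.09.

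The places were short, and few lay near one another, though 180 (61.4%) had some other IgG peak within 1000 nt. Their median width was 35 nt (quartiles 24 and 48), with a range of 2 to 142 nt. All IgG peaks had a median of 32 nt, the peaks that RBFOX2 shared 45 nt, and the 15351 IgG peaks with no RBFOX2 peak that were not in both SLBP lists 28 nt. The widest places were at chr6:31238004-31238145 (minus strand, 142 nt), chr2:8822188-8822306 (plus strand, 119 nt) and chr13:77601114-77601224 (minus strand, 111 nt). The narrowest were 2 nt wide, on chromosome 10 at 121595210 (minus strand), and 3 nt wide, on chromosome 2 at 175113189 (minus strand), and 4 places were 4 nt wide, among them the one on chromosome 10 at 121596408 (minus strand). Joined within 1000 nt on a strand, the 293 places formed 273 loci, of which 256 held a single place, 14 held 2 and 3 held 3. The plus strand carried 140 of them, 47.8% (41.9 to 53.7).

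SLBP peaks covered most of a typical place but seldom ended where it ended. A median of 79.3% of the place was covered in SLBP replicate 1 and 78.4% in replicate 2. The 5′ ends lay a median of 10 nt apart in both libraries, and 94 and 102 places had 5′ ends within 5 nt of each other. The nucleotides common to IgG and both SLBP lists had a median length of 16 nt per place. At 27 places the 2 SLBP peaks overlapped different parts of the IgG peak, so no nucleotide was common to the 3 lists. Some neighbouring places shared 1 SLBP peak: 288 distinct peaks lay behind the 293 places in each of the 2 libraries, so places are not independent of each other.

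Most places lay somewhat above input in the control, and lower than a typical peak of the same list. The IgG log2 fold had a median of 0.57 (quartiles 0.14 and 1.02) and ran from −1.94 to 3.90. All IgG peaks had a median of 1.31, and the peaks shared with RBFOX2 had 0.24. Of the places, 56 (19.1%, 14.8 to 24.1) lay below input, against 10.4% of all IgG peaks and 37.9% (36.2 to 39.6) of those shared with RBFOX2. The order of the medians was the same in the SLBP lists. In replicate 1 the places had a median of 1.05, between 1.57 for all peaks of that list and 0.57 where RBFOX2 also had a peak. In replicate 2 the corresponding values were 1.04, 1.46 and 0.43. The authors' −log10 p in IgG had a median of 0.32 over the places and 0.62 over all IgG peaks. By that p-value a typical place was not set apart from input.

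**Figure D1:**
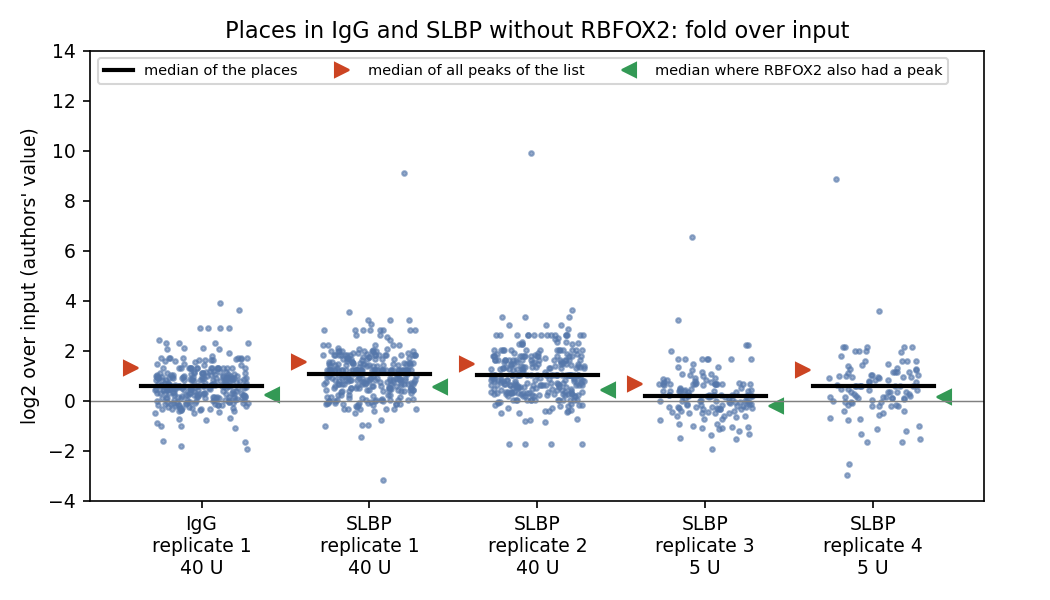
Log2 over input (authors' value, y axis) of each place in the IgG list and the 4 SLBP lists (x axis, with RNase I amount); each point is 1 place, the black bar is the median of the places, and the triangles are the medians of all peaks of the list and of places where RBFOX2 also had a peak. In each list the median of the places, from 0.19 in SLBP replicate 3 to 1.05 in SLBP replicate 1, lies between the 2 triangles, and 1 place stands far above the rest in the SLBP lists.

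Nearly all places fell short of enrichment in every list, as did nearly all peaks of those lists. A peak was called enriched at a deposited −log10 p of at least 5 and a log2 fold of at least 3, which is 8-fold over input. In IgG 0 of 293 places passed, against 0.174% of all IgG peaks. That allows a share of up to about 1.02% (3 of 293, an approximate upper bound and not an exact interval). The highest IgG −log10 p of a place was 26.1, and 0 places were at the ceiling of 400, against 0.0284% of all IgG peaks. In SLBP replicates 1 to 4, 293, 293, 144 and 103 places had a peak. Exactly 1 place passed, the same one in each of the 4, against 1.24%, 1.27%, 1.72% and 2.36% of all peaks of replicates 1 to 4. The choice of places used IgG and SLBP replicates 1 and 2, so nothing is read from those counts.

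The place enriched in SLBP lay in the HIST1 window, which spans the main cluster of replication-dependent histone genes on chromosome 6. It ran from 26056014 to 26056064 on the minus strand and was 51 nt wide. Its log2 fold was 2.43 in IgG, 9.12 and 9.93 in SLBP replicates 1 and 2 (40 U), and 6.55 and 8.87 in replicates 3 and 4 (5 U). The SLBP mean was 8.62 ± 1.45 (SD, n = 4), and the lowest SLBP library stood 4.12 above the single IgG library on the log2 scale. The means at 40 U and 5 U were 9.52 ± 0.57 (SD, n = 2) and 7.71 ± 1.65 (SD, n = 2), with no test, since replicates 1 and 2 chose the place. SLBP peaks here were split into touching pieces, 4, 3, 4 and 4 of them over the place in replicates 1 to 4, each at the ceiling of 400 for −log10 p. The nearest RBFOX2 peak lay 156 nt away and had a log2 fold of −1.93 in replicate 2. The places were picked as background independent of the antibody, and the values of this place go against that description. The remaining histone windows, HIST2, HIST3 and HIST4, held 0 places.

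Apart from this one, the SLBP folds were modest. The second highest log2 fold was 3.57 in replicate 1, 3.63 in replicate 2, 3.24 in replicate 3 and 3.58 in replicate 4. In SLBP replicates 1 and 2, 33 and 26 places lay below input (11.3% and 8.87%, against 6.78% and 9.14% of all peaks of these lists). In all, 207 places (70.6%, 65.1 to 75.8) lay above input in IgG and both of these lists. Only 8 lay below input in all 3. The fold was higher in SLBP replicate 1 than in IgG at 202 places and higher in SLBP replicate 2 at 191, and whether the folds of different lists are on one scale is not known.

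**Figure D2:**
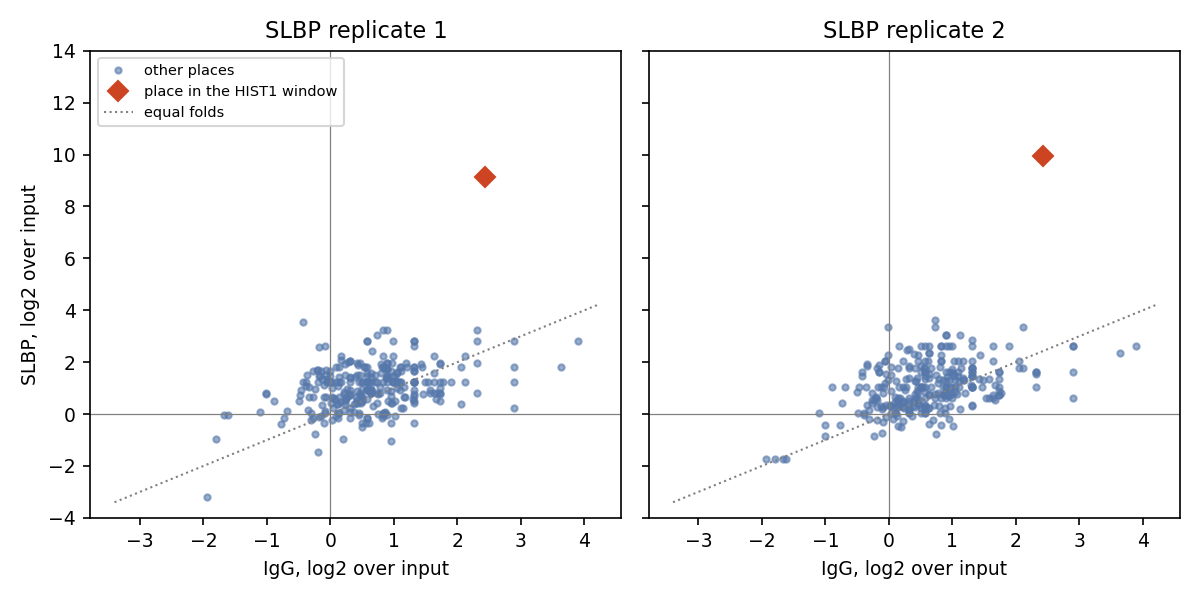
Log2 over input of each of the 293 places in SLBP replicate 1 (left) and replicate 2 (right) against IgG (x axis); the diamond is the place in the HIST1 window and the dotted line marks equal folds. The HIST1 place sits at 9.12 and 9.93 on the y axes, and all other places lie below 4.

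Folds of the libraries went together loosely across places. Between IgG and SLBP replicate 1, Pearson's r was 0.38 and Spearman's rho 0.30 over 293 places, and between IgG and SLBP replicate 2 they were 0.45 and 0.40. The 2 SLBP lists had r = 0.55 and rho = 0.37, and without the HIST1 place r = 0.41 and rho = 0.36. These describe the lists: places in each list share a library and an input, and neighbouring places can share a peak. Many places carried identical folds. The 293 IgG folds took 146 distinct values, 17 places had the value 1.31, and 201 shared their value with another place. SLBP replicates 1 and 2 had 106 and 95 distinct values.

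The 5 U SLBP libraries, which the rule did not use, held a peak at fewer of these places than at IgG and SLBP peaks that RBFOX2 also had. SLBP replicate 3 had a peak at 144 places (49.1%, 43.3 to 55.0) and replicate 4 at 103 (35.2%, 29.7 to 40.9). For the 3097 peaks shared with RBFOX2 the shares were 74.2% (72.6 to 75.7) and 69.2% (67.6 to 70.9), and for all IgG peaks they were 17.5% and 13.9%. The shares of the places depended on the SLBP lists required: without SLBP replicate 1 they were 26.0% and 19.1%, and without replicate 2 26.4% and 15.2%. The peaks shared with RBFOX2 were also wider, with a median of 45 nt against 35 nt for the places, and the part of width in the shares was not tested. Some places lay on the same peak, with 139 distinct peaks behind the 144 places in replicate 3. Peaks are not replicates of a condition, so the difference between the places and the peaks shared with RBFOX2 is given without a test.

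**Figure D3:**
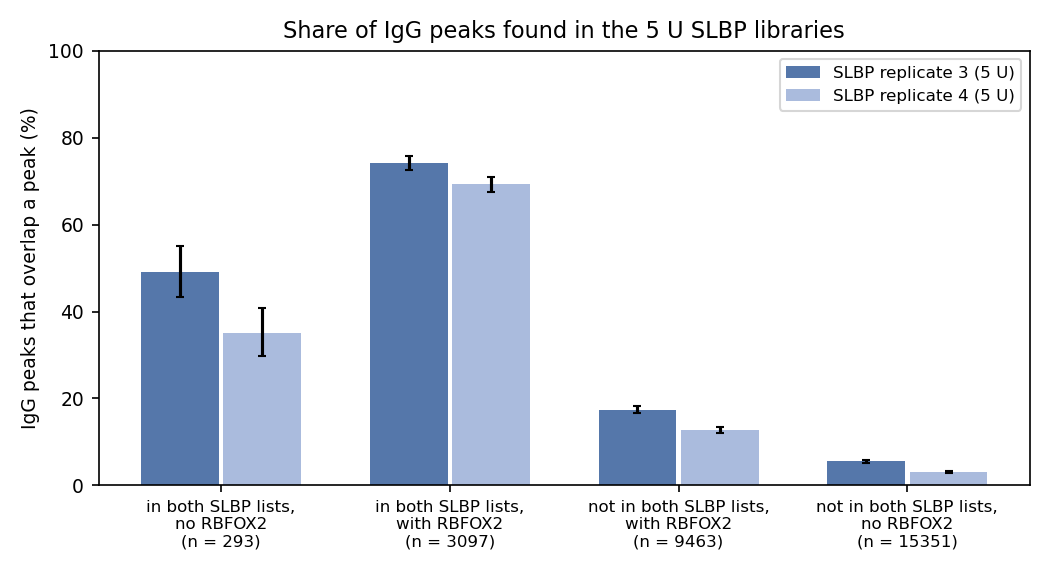
Share of IgG peaks (y axis, %) that overlap a peak of SLBP replicate 3 or 4, for the places (left) and the 3 other classes of IgG peaks; error bars are exact binomial 95% intervals and cover counting error only. The places stand at 49.1% and 35.2%, between peaks that RBFOX2 shared (74.2% and 69.2%) and both classes not in both 40 U SLBP lists (at most 17.4%).

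Places with a peak in more of the 5 U lists had lower median folds at 40 U. Both 5 U lists had a peak at 71 places, 1 of them at 105 and neither at 117. The median IgG log2 fold was 0.24, 0.50 and 0.90 in these groups. SLBP replicate 1 had medians of 0.75, 1.05 and 1.24 and replicate 2 medians of 0.50, 0.91 and 1.31. Below input in IgG were 32.4%, 21.0% and 9.40% of the 3 groups. These are values of lists that chose the places and carry no test.

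At 5 U the folds themselves were lower. Over the 71 places with a peak in all 4 SLBP lists, the median log2 fold was 0.75 and 0.50 in replicates 1 and 2 and −0.046 and 0.41 in replicates 3 and 4. The library medians averaged 0.62 ± 0.18 (SD, n = 2) at 40 U and 0.18 ± 0.32 (SD, n = 2) at 5 U, a difference of 0.44. This difference carries no test, since replicates 1 and 2 chose the places and replicates 3 and 4 narrowed them to these 71. All peaks of the lists moved the same way, with medians of 1.57 and 1.46 at 40 U and 0.66 and 1.22 at 5 U, with a difference of mean medians of 0.57, so the difference at the places cannot be told apart from one over the whole lists. Of the 71 places, 18 lay above input in IgG and all 4 SLBP lists and 4 below input in all 5.

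RBFOX2 peaks were often close by. The nearest RBFOX2 peak on the same strand lay a median of 388 nt from a place, against 1025 nt for the 15351 other IgG peaks without RBFOX2. An RBFOX2 peak lay within 100 nt of 79 places (27.0%, 22.0 to 32.4) and within 1000 nt of 182 (62.1%, 56.3 to 67.7). The other IgG peaks without RBFOX2 had shares of 16.0% (15.4 to 16.6) and 49.5% (48.7 to 50.3). Only 24 places were more than 10000 nt from one. An RBFOX2 peak on the opposite strand was rare at any IgG peak. It was seen at 93 of all 28204, at 9 of the 3097 shared with RBFOX2 and at 32 of the 15351 others without RBFOX2. The 0 of 293 places is therefore not read as a trait of the places.

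**Figure D4:**
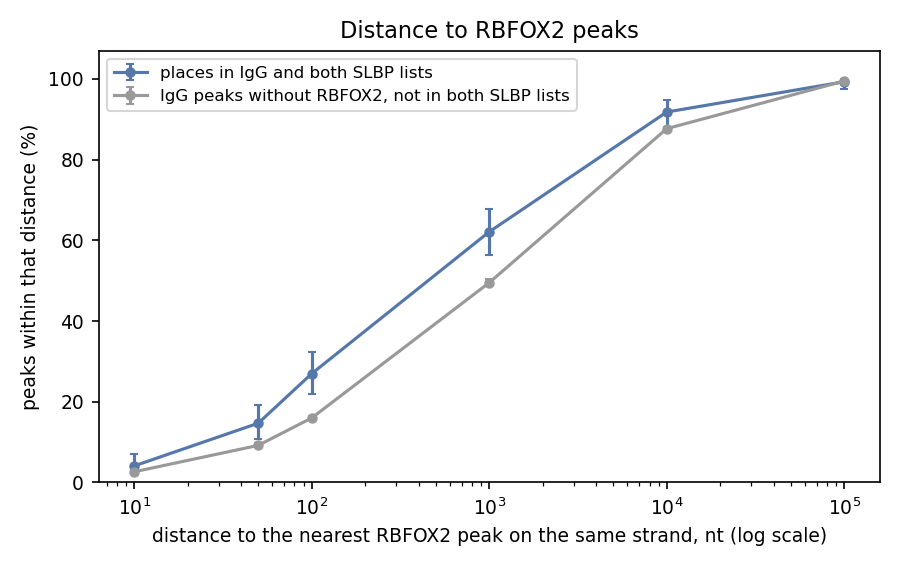
Share of IgG peaks (y axis, %) whose nearest RBFOX2 peak on the same strand lies within a distance (x axis, nt, log scale), for the 293 places and for 15351 IgG peaks without RBFOX2 that were not in both SLBP lists; error bars are exact binomial 95% intervals. Within 1000 nt the shares are 62.1% and 49.5%, and within 100000 nt they are 99.3% and 99.5%.

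Counted once for each place they lay near, RBFOX2 peaks close to the places had lower median folds than the RBFOX2 lists as a whole. RBFOX2 replicate 1 had 717 pairs of a place and a peak within 1000 nt, at 156 places, and the peaks had a median log2 fold of −0.08, against 0.73 for the whole list. Replicate 2 had 609 pairs at 144 places, with a median of 0.23 against 0.86. Of these pairs 52.2% and 46.0% had an RBFOX2 peak below input, against 32.5% and 30.9% of the peaks in the lists. Enriched peaks did not run the same way in both lists: they made up 5.02% of the pairs against 7.97% of the list in replicate 1, and 8.87% against 7.68% in replicate 2. A peak near several places counts several times among the pairs and once in its list. RBFOX2 peaks near other IgG peaks were not measured in this way. An enriched RBFOX2 peak lay within 1000 nt of 18 and 20 places. IgG peaks that overlapped an RBFOX2 peak lay within 1000 nt of 116 places, and 113 places had no other IgG peak that close.

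The median SLBP folds of the places rose with each step away from RBFOX2 peaks. The median IgG folds were also higher beyond 1000 nt than within it, but did not rise at each step. Within 100 nt of an RBFOX2 peak the median IgG log2 fold was 0.56 (79 places), from there to 1000 nt 0.46 (103 places), from 1000 to 10000 nt 0.80 (87 places), and beyond that 0.69 (24 places). In the same groups the medians were 0.92, 1.02, 1.24 and 1.34 in SLBP replicate 1 and 0.72, 1.04, 1.19 and 1.25 in SLBP replicate 2, values of lists that chose the places and carry no test. SLBP replicate 3 had a peak at 50.6%, 55.3%, 44.8% and 33.3% of these groups, and the exact 95% interval of the last ran from 15.6 to 55.3.

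Chromosomes 19 and X held a larger share of the places than of the IgG list. Chromosome 19 held 38 places in 35 loci, 13.0% (9.34 to 17.4), against 7.19% of all IgG peaks and 7.69% of those shared with RBFOX2. Chromosome X held 28 places in 22 loci, 9.56% (6.44 to 13.5), against 4.06% and 7.39%, the last of which lies within that interval. Chromosomes 20 and 16 held smaller shares, with 1 place (0.341%, 0.009 to 1.89, against 2.28% of IgG peaks) and 9 places (3.07%, 1.41 to 5.75, against 6.10%). Of the peaks shared with RBFOX2 they held 2.71% and 4.81%, and the value for chromosome 16 lies within the interval of its places. The places on chromosome 19 had a median IgG log2 fold of 0.48, and 21 of them lay on the plus strand. These 23 chromosomes were looked at together and no test was made.

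**Figure D5:**
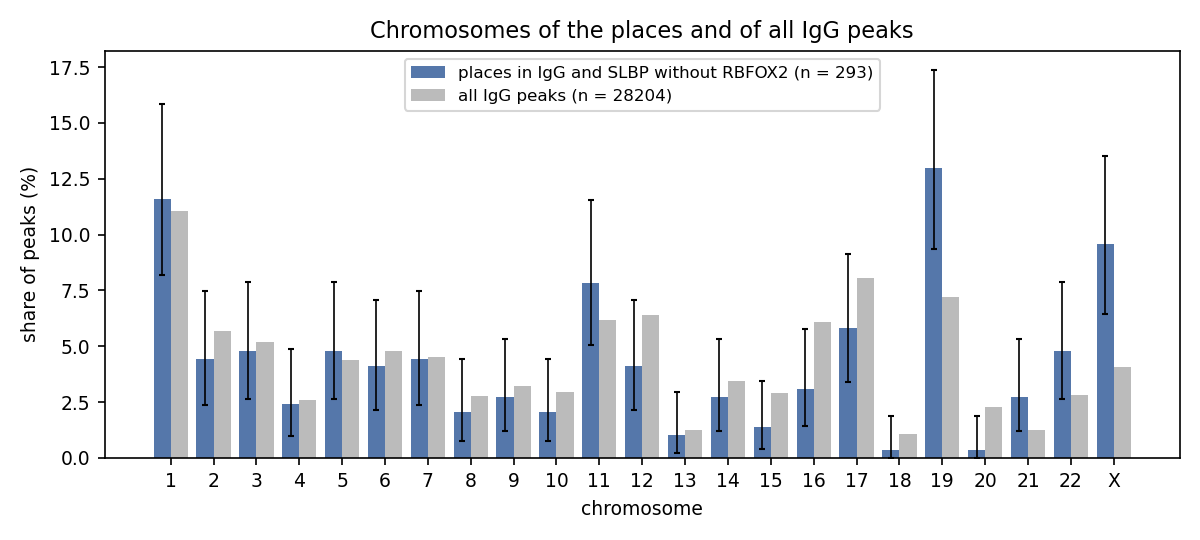
Share (y axis, %) of the 293 places and of all 28204 IgG peaks on each chromosome (x axis); error bars on the places are exact binomial 95% intervals. Chromosome 19 (13.0% against 7.19%) and chromosome X (9.56% against 4.06%) have intervals above the share of all IgG peaks. For chromosome X the share of IgG peaks shared with SLBP and RBFOX2, 7.39% (not drawn), lies within the interval of the places. The intervals cover counting error only and are no test.

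On chromosome X, 14 of the 28 places came from 2 stretches. The first is the window of XIST, the noncoding RNA that coats the inactive X chromosome. It held 7 places among its 146 IgG peaks (4.79%), and 109 more were shared with SLBP and RBFOX2. The IgG log2 folds of the 7 places ran from −0.19 to 1.67 with a median of 0.57, against 0.11 for all IgG peaks of the window. The 3 highest lay side by side near the upstream edge of the window, on the minus strand at 73072143 to 73072159, 73072160 to 73072181 and 73072191 to 73072221. Their log2 folds in IgG were 1.67, 1.30 and 1.17, with −log10 p of 26.1, 21.7 and 13.5. In SLBP replicate 1 they were 0.59, 0.59 and 0.67, and in SLBP replicate 2 1.13, 1.13 and 1.39, the first 2 places lying on the same SLBP peaks.

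IgG thus stood above both SLBP libraries at the first 2 of these places, and SLBP replicate 2 stood above IgG at the last. Neither 5 U list had a peak at any of them. The nearest RBFOX2 peaks lay 52 to 100 nt away in replicate 1, with a log2 fold of −0.28. The 4 other XIST places had IgG log2 folds of 0.15, −0.19, 0.57 and 0.03 in order of position and lay 4 to 33 nt from an RBFOX2 peak.

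The second stretch was chosen after its values were seen. It ran over 40708 nt of the plus strand of chromosome X, from 70753016 to 70793723, and held 7 places among 26 IgG peaks. The IgG log2 folds ran from −0.09 to 2.05 with a median of 0.24. SLBP replicate 1 had −0.04 to 0.60 there and replicate 2 −0.30 to 1.78. The highest, at 70756099 to 70756141, had 2.05 in IgG, 0.38 and 1.78 in SLBP replicates 1 and 2, and 0.13 and 0.48 in replicates 3 and 4. Each of the 5 U lists had a peak at 5 of the 7 places. The stretch also held 30 and 17 RBFOX2 peaks in replicates 1 and 2, and the nearest of either list lay 81 to 6274 nt from each place. The other 14 places on chromosome X had a median IgG log2 fold of 0.21.

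Windows of other abundant RNAs held places too, read here against the 1.04% of all IgG peaks that were places. That base does not allow for the SLBP part of the rule, which IgG peaks of these windows often met. IgG peaks shared with SLBP and RBFOX2 were 109 of 146 for XIST and 43 of 53 for MALAT1, against 11.0% of all IgG peaks. Of all IgG peaks in both SLBP lists, 8.64% were places, so the window shares are not read as an excess. NEAT1, the noncoding RNA around which paraspeckles assemble, had 4 places among 93 IgG peaks (4.30%), and 49 more were shared with SLBP and RBFOX2. Its places lay on chromosome 11 on the plus strand. They started at 65196213, 65203632, 65209822 and 65209965 and had IgG log2 folds of 0.91, 0.89, 0.25 and 0.75. In SLBP replicate 1 the same places had 0.51, 1.43, 0.63 and 0.78, and in SLBP replicate 2 1.44, 0.25, 0.91 and 1.51, so the 2 SLBP libraries ordered them differently. MALAT1, a noncoding RNA of nuclear speckles, held 1 place of 53 IgG peaks (1.89%), at 65268868 to 65268912, with log2 folds of −0.24 in IgG and −0.77 and −0.84 in SLBP replicates 1 and 2; it lay 12 nt from an RBFOX2 peak.

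The window of ACTB, the gene of cytoplasmic beta-actin, held 3 places among 15 IgG peaks (20.0%), and 5 more were shared with SLBP and RBFOX2. The 3 places lay on chromosome 7 on the minus strand at 5567381 to 5567424, 5568163 to 5568222 and 5568223 to 5568305. Their IgG log2 folds were 0.56, −0.74 and −0.27. SLBP replicate 1 had −0.34, −0.14 and −0.14 and SLBP replicate 2 0.04, 0.41 and 0.41, the last 2 places lying on the same SLBP peak, and all 3 places also had peaks in both 5 U lists. The one that ends at 5568305 lay 62 nt from an enriched RBFOX2 peak whose log2 fold was 4.27 in replicate 1, and 68 nt from one of 3.65 in replicate 2. The windows of SNHG1, GAS5, RN7SK, RN7SL1, RN7SL2, RMRP, RPPH1, VTRNA1-1, GAPDH and EEF1A1 held 0 places among 86 IgG peaks in all, 1 to 15 per window. In all 14 windows of a single gene, the 7 lists had 0 peaks on the strand opposite to the gene.

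The places with the highest fold in the lowest of IgG and the 2 SLBP lists stood outside these windows, save the HIST1 place. At chr16:2098592-2098603 (plus strand) the log2 fold was 3.90 in IgG, the highest of any place, and 2.83 and 2.63 in SLBP replicates 1 and 2, but 0.34 in replicate 3. At chr3:75484138-75484172 (minus strand) the values were 2.90 in IgG and 2.83 and 2.63 in SLBP. At chr12:51539718-51539736 (minus strand) they were 3.63 in IgG and 1.83 and 2.36 in SLBP, 14938 nt from the nearest RBFOX2 peak. These short peaks had high folds in all 3 lists, yet their −log10 p was short of the limit of 5 in each. It was 2.53, 1.13 and 2.05 in IgG, 1.97, 1.09 and 0.80 in SLBP replicate 1, and 0.98, 0.98 and 1.38 in replicate 2. Of all IgG peaks, 4.13% reached the log2 fold of 3, as did 28 of the 3097 shared with SLBP and RBFOX2. Of the 293 places 2 did, the ones on chromosomes 16 and 12.

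The others in this group had IgG log2 folds of 1.63 to 2.31. They lay at chr11:67354048-67354076 (plus strand) and 118967319 to 118967361 (minus strand), chr1:180245105-180245147 and 231004214 to 231004271 (both minus strand), chr5:61708679-61708713 (plus strand) and chr17:80481026-80481056 (plus strand). Of these 6, only the one at 118967319 had peaks in the 5 U lists, with log2 folds of 1.66 and 3.58, beside 3.24 and 1.63 at 40 U.

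By p-value a different set stood out. A −log10 p of at least 5 in IgG was reached by 5 of the 293 places. It was reached by 0.737% of all IgG peaks and by 141 of the 3097 shared with SLBP and RBFOX2. Of the 5 places, 3 were the XIST places that lay side by side. The fourth, at chr3:179879759-179879764 (minus strand), was 6 nt wide and had a −log10 p of 14.5 at a log2 fold of 0.74. It lay 2 nt from an RBFOX2 peak with a log2 fold of −2.18, and SLBP had 0.0007 and −0.79 there in replicates 1 and 2. The fifth, at chr19:56185963-56186024 (plus strand), had a −log10 p of 5.03. Its log2 folds were 1.03 in IgG and 1.29, 1.45, 1.66 and 0.64 in SLBP replicates 1 to 4, so it was above input in all 5 libraries.

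The places lowest in IgG were mostly below input in the SLBP lists as well. At chr1:45187489-45187510 (minus strand) the log2 fold was −1.94 in IgG and −3.19, −1.74, −1.52 and −2.53 in SLBP replicates 1 to 4. At chr6:8086721-8086764 (minus strand) it was −1.80 in IgG and −0.97, −1.75, −1.93 and −2.97 in SLBP. An adjoining pair at chrX:54840802-54840844 (plus strand) had −1.62 and −1.67 in IgG and −0.02, −1.72, −1.09 and −1.66 in the SLBP peaks that covered both. The fifth lowest, at chr11:2418497-2418527 (plus strand), differed between lists, with −1.10 in IgG, 0.10 and 0.04 in SLBP replicates 1 and 2, −1.15 in replicate 3 and 1.58 in replicate 4.

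The 3 loci with 3 places each were those of XIST and ACTB and one at chr22:38201255-38201585 (plus strand). There the IgG log2 folds were −0.20, 0.09 and 0.01, close to input, and SLBP replicate 1 had 1.69, 1.24 and 0.41. Replicate 2 had 0.63, 0.66 and 0.34. Both 5 U lists had peaks at all 3 places, and the nearest RBFOX2 peak lay 626 to 949 nt away. Among the 14 loci of 2 places, the first by position was at chr1:228285083-228285743 (plus strand), with IgG log2 folds of 0.71 and −0.13.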

How the data were processed

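The series lists 24 samples of 293T eCLIP, of which 7 have peak lists; the 7 inputs, and 10 further RBFOX2 samples that vary RNase I, were not analysed here. Per the submitters' processing notes, the tools were STAR, cutadapt, SAMtools, Picard and GATK, with hg19 as the build. For versions and the peak caller, the sources used here give nothing. The lists carry no header. The deposited −log10 p (0 to 400, and 0 below input) and the deposited log2 fold are the authors' values of immunoprecipitation against paired input, as read from the values and list names. Depth is unknown.

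Peaks were matched per list with Python 3.11.15, numpy 2.4.6, pandas 2.3.3 and scipy 1.17.1. The matching was tested on simulated data and gave the same 293 places as bedtools 2.31.1. Coordinates count from 1. No hg19 annotation or genome was used, so places carry no gene names or sequences. The exceptions are 18 windows, 4 of histone clusters and 14 of single genes, taken from general knowledge of hg19 and checked only for strand. The members, windows and limits were chosen with earlier results of these data known. Named places follow a written rule: the 10 highest by lowest fold, 5 lowest in IgG, 5 fullest loci, 3 widest and narrowest, up to 5 per window and 3 on each side of the RBFOX2 edge. Places named for p-value, fold limit, SLBP enrichment, the chromosome X stretch or the last XIST places were added after their values were seen. Alternatives covered overlap, distance, strand, merging, limits and each library left out. A planned permutation test of 40 U against 5 U SLBP libraries is given without its p-value, since the 40 U libraries chose the places and 2 against 2 libraries cannot pass.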

Additional observations from a re-analysis of the deposited data

Results flagged for a closer look

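Of the 71 places with a peak in all 4 SLBP lists, 5 lay above input in both 40 U libraries and below it in both 5 U libraries, and 0 the other way round. This count was not made for other peaks, so it is not read as a trait of the places. Below input in SLBP replicates 1 to 4 lay 21.1%, 16.9%, 56.3% and 28.2% of the 71 places. Of the 1877 peaks shared with RBFOX2 and found in all 4 SLBP lists, 38.9%, 44.2%, 64.0% and 48.5% lay below input. None of these differences was tested, and the amount of RNase I goes with the replicate number. Of the 5 places above input at 40 U and below it at 5 U, 2 are named above. At chr2:175113189-175113191 (minus strand) the SLBP log2 folds were 0.66 and 0.56 at 40 U and −0.04 and −0.42 at 5 U, a difference of means of 0.84. At chr22:38201552-38201585 (plus strand) they were 0.41 and 0.34 at 40 U and −0.02 and −0.20 at 5 U, a difference of 0.49. The largest difference was 1.89, at chr19:54972438-54972455 (plus strand), with 1.34 and 1.54 at 40 U and −0.41 and −0.49 at 5 U. The other two differed by 1.29 and 0.85.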

How the results depend on the processing

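Of 141 recomputed values of 12 results, 105 stayed within the interval of the value reported, or within 1.5 times it for counts. Some of the 105 could not have moved. Excluding places with an RBFOX2 peak on either strand gave the same 293 places. Without SLBP replicate 1, that library's own median rested on the same 293 places, and likewise for replicate 2. A higher fold limit, or a subset of the places, could not raise the 0 enriched in IgG. The 36 values that moved follow, and the cause was not tested. Requiring all 4 SLBP lists left 71 places in 61 loci by construction; 32.4% were below input in IgG, and the median log2 fold was 0.24 in IgG, 0.75, 0.50 and −0.046 in SLBP replicates 1 to 3. An overlap of at least 50% of the IgG peak gave 27.3% below input and medians of 0.45 in IgG and 0.78 in SLBP replicate 2. IgG peaks at or above input had a median of 0.80; the share below input has no value there, nor have the shares in SLBP replicates 3 and 4 where all 4 lists are required. Without the p limit, 2 places counted as enriched in IgG, and 0 under every other alternative. Leaving out 1 SLBP or RBFOX2 library at a time relaxed the rule and gave 436 to 1280 places in 408 to 1202 loci (1019 and 1280 without SLBP replicates 1 and 2, 631 and 436 without RBFOX2 replicates 1 and 2). Over these, the median width was 31 to 38 nt, the share below input 12.7% to 30.4%, the median IgG log2 fold 0.39 to 0.85, and the SLBP medians 0.81 to 1.24, 0.63 to 1.04, −0.019 to 0.24 and 0.36 to 0.90 for replicates 1 to 4. SLBP replicate 3 then had a peak at 26.0% to 55.9% and replicate 4 at 15.2% to 45.0% of the places. Requiring 1 nt common to all 3 lists (266 places) and taking the highest overlapping SLBP fold were alternatives chosen after seeing the data and changed no value beyond these bounds. No paired analysis was possible because there is 1 IgG library and the places come from overlaps, not from a test between groups. Fold values from lists without read counts limit what can be said of single places.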
